A study of Mus musculus with 1152 samples.

Results

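Microglia of the hippocampus were compared with microglia of the cortex in 5xFAD mice. The comparison was defined by the labels alone: 154 cells from 3 mice labelled hippocampus were set against 183 cells from 4 mice labelled cortex, which together made 337 of the 1041 cells kept in the series. 5xFAD is a transgenic mouse line, driven by a neuronal promoter, that models familial Alzheimer disease and forms amyloid plaques. The labels give the strain C57BL/6J for 5xFAD and wild-type (WT) mice alike, no treatment, and no age. Single cells were sorted after staining for CD11b, CD45, Ly6C, Ly6G and CD206, and read by Smart-seq2, which covers whole transcripts but tags no molecules, so reads are not independent molecules. By the series description all regions were taken from each animal, so cells of the same replicate number within a genotype were taken to share a mouse. The 5xFAD hippocampus and the 5xFAD cortex lay on different plates, so that plate and region cannot be told apart in this comparison. WT hippocampus and WT cortex, 4 mice each and 349 cells, shared a plate of their own and are given beside the 5xFAD values. The 5xFAD cerebellum (3 mice), which lay on the plate of the 5xFAD hippocampus, is used in the same way.

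Microglia are the resident macrophages of the brain. In healthy tissue they express a set of sensing and adhesion genes such as P2ry12, Tmem119 and Cx3cr1, often called homeostatic. Around amyloid plaques many of them lower these genes and raise another set, called disease-associated, that serves phagocytosis, lipid handling and lysosomal breakdown and depends in part on the receptor Trem2. Plaque load differs between brain regions in 5xFAD mice, and the design asks how the microglia of the regions differ.

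Each mouse and region was represented by the sum of its cells, with 14052544 to 18745620 gene reads in the hippocampus and 10422477 to 12775023 in the cortex. Median depth was 328900 gene reads per hippocampal cell and 256700 per cortical cell, and the median number of genes was 2899 ± 134 (SD, n = 3 mice) and 2846 ± 128 (SD, n = 4 mice), with overlapping mouse values. The filter dropped 22 of 176 hippocampal wells and 7 of 190 cortical wells. At its edges, the highest mitochondrial share kept was 19.7% and the lowest dropped was 21.6% in the hippocampus, against 7.81% and 30.0% in the cortex. The fewest genes kept were 609 and 1070, and the most genes in a well dropped for few genes were 357 and 460. The fewest reads kept were 18778 and 11054, and the most in a well dropped for few reads were 7836 and 3032. All 10 microglia markers were read in both regions, at a summed level of 50720 to 57220 counts per 1000000 reads (CPM) in hippocampal mice and 62090 to 64780 in cortical mice. Markers of other cells were low: border macrophage markers summed to 5.05 to 14.6 CPM in the hippocampus and 1.92 to 40.2 in the cortex (Cd163 and Cd209f at 0 in both), monocyte markers to 3.04 to 10.1 and 0.442 to 32.6 (Ifitm6 at 0), T and NK cell markers to 1.69 to 3.31 and 0.768 to 3.802 (Cd3g, Nkg7 and Gzmb at 0), neuron markers to 8.18 to 18.8 and 1.24 to 19.5, endothelial and mural markers to 11.7 to 54.2 and 6.06 to 41.0 (Cldn5 and Itm2a at 0), and red blood cell markers to 0 and 0.480 to 2.66 (Hba-a1, Hba-a2 and Hbb-bs at 0). The neutrophil (700 to 855 and 608 to 701 CPM), B cell (726 to 980 and 855 to 1090, Igkc at 0), astrocyte (171 to 208 and 148 to 333) and oligodendrocyte lists (573 to 590 and 413 to 625, Olig1 at 0) summed higher. Of each of these, 1 member was read in many cells of both regions: Csf3r in 87.7% and 92.3%, Ighm in 79.2% and 85.8%, Slc1a3 in 44.2% and 53.6%, and Trf in 89.0% and 98.9%. 23 kept cells of hippocampus mouse 1, and 0 in the cortex, came from wells whose deposited columns were sums of several wells and had to be separated by subtraction.

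The share of cells with reads of several disease-associated genes was higher in the hippocampus. A panel of 8 genes was used: Cst7, a cystatin that inhibits cathepsins, Lpl, lipoprotein lipase, the integrin subunit Itgax, the pattern receptor Clec7a, the phosphatidylserine-bridging receptor Axl, the oxysterol-forming enzyme Ch25h, the secreted phosphoprotein Spp1 and the glycoprotein Gpnmb. Each cell was thinned to 50000 gene reads, which left out 19 hippocampal and 11 cortical cells that were shallower, and a gene counted with at least 5 reads. A cell with at least 3 of the 8 genes was called panel-positive, one with 0 or 1 panel-negative. In hippocampus mice 1, 2 and 3, 19 of 43 (44.2%), 23 of 50 (46.0%) and 25 of 42 cells (59.5%) were panel-positive. In cortex mice 1 to 4, 9 of 40 (22.5%), 13 of 43 (30.2%), 10 of 45 (22.2%) and 11 of 44 cells (25%) were. Every hippocampal mouse therefore lay above every cortical mouse. The means were 49.9% ± 8.38 (SD, n = 3) and 24.99% ± 3.71 (SD, n = 4), a difference of 24.9 percentage points. An exact permutation test, two-sided, gave p = 0.0571, the smallest possible for 3 against 4 independent values (0.0762 adjusted over 4 tests). The test took the regions as independent, although by the replicate numbers hippocampus mice 1 to 3 are also cortex mice 1 to 3. Cells of the hippocampal mouse with the lowest share had a Wilson 95% interval of 30.4 to 58.9%, which overlaps that of the cortical mouse with the highest share, 18.6 to 45.1%. These intervals cover counting error only.

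The number of panel genes per cell showed the same order. Of 135 hippocampal cells 33 had none of the 8 genes, against 79 of 172 cortical cells, and 35 had at least 5 of them, against 17. Panel-negative cells made up 34.3% ± 6.59 in the hippocampus and 66.3% ± 6.36 in the cortex, without overlap (exact permutation p = 0.0571, n = 3 and 4). The class is a range on a count of genes, not a cell type: 33 hippocampal and 26 cortical cells had 2 or 3 genes, next to the boundary. The same panel marked 16.8% ± 9.02 of 5xFAD cerebellar cells (3 mice), 1 of 177 WT hippocampal cells and 0 of 133 WT cortical cells. In the WT cerebellum it marked 9 of 137 cells (6.46% ± 3.98, 4 mice), so panel-positive cells were not confined to 5xFAD mice. In the blank wells of the plates holding the 5xFAD samples no panel gene had more than 2 reads per plate.

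**Figure D1:**
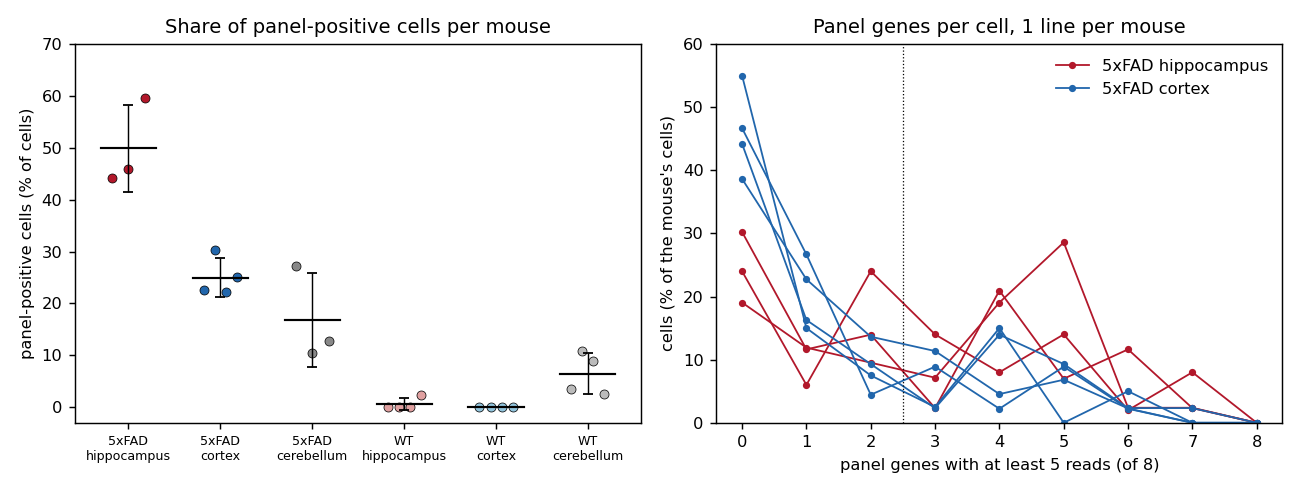
Left, percent of panel-positive cells (y axis) in each mouse of the 6 groups; points are mice, bars the mean and whiskers 1 SD. Right, percent of a mouse's cells (y axis) by number of panel genes with at least 5 reads (x axis), 1 line per 5xFAD mouse, with a dotted line at the boundary for panel-positive cells. The 3 hippocampal mice sit between 44.2 and 59.5%, above the 4 cortical mice at 22.2 to 30.2%, and all 4 cortical lines start above the hippocampal ones at 0 genes.

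Single panel genes followed this order with wide errors. Cst7 reached 11.19, 11.02 and 10.37 log2 CPM in the hippocampal mice and 10.21, 9.003, 9.01 and 8.52 in the cortical mice. The groups did not overlap, but the hippocampal excess of 1.57 ± 1.24 (log2 fold change ± SE) did not pass over all genes (edgeR adjusted p = 0.851). Lpl stood at 9.68, 10.15 and 9.02 against 8.41, 7.50, 7.22 and 7.37 (1.98 ± 0.90, adjusted p = 0.594). Per cell, Lpl had at least 5 reads in 34.9, 38.0 and 42.9% of thinned hippocampal cells and in 13.3 to 22.5% of cortical ones. Clec7a, which recognises beta-glucans, had 10.11, 10.34 and 9.49 log2 CPM against 7.90, 8.67, 8.45 and 9.06, again without overlap. Axl and Ch25h did not overlap either, with Axl at 8.75 to 9.04 against 7.58 to 8.05 and Ch25h at 6.35 to 7.26 against 4.05 to 6.10 log2 CPM. For Itgax (6.91 to 7.68 against 6.21 to 6.93) and Spp1 (4.80 to 7.18 against 4.23 to 5.09) the mice overlapped. Gpnmb gave 3123, 762 and 1252 reads in the hippocampal mice and 0, 2, 0 and 44 in the cortical mice; it reached 5 reads in at most 11.9% of the thinned cells of a mouse. None of the 8 genes passed the adjusted threshold.

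Over all 17358 genes tested, 6 passed an adjusted p of 0.05 (edgeR), which is 0.0346% of them: 5 were higher in the hippocampus (Ctsb, Slc34a2 and the mitochondrially encoded mt-Rnr2, mt-Co1 and mt-Nd5) and 1 lower (Hnmt). At an unadjusted p under 0.05 there were 1003 higher and 441 lower, and DESeq2 called 130 higher and 114 lower, including all 6. The median log2 fold change of all genes was 0.08. When the fit held only these 7 sums, 0 genes passed. Without the cells that had more than 4% mitochondrial reads, a choice made after the data were seen, 0 passed too. Mouse values did not overlap for 4.96% of genes in the higher and 3.12% in the lower direction, and these shares are the background for the counts of list members below. In bulk sums of cells, more cells of a state and more RNA per cell cannot be told apart.

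The lysosomal genes with the smallest p were 2 cathepsins. Ctsb (chromosome 14, 63122462 to 63145923, GRCm38), a cysteine protease of the lysosome, was at 13.55, 13.56 and 13.70 log2 CPM in the hippocampal mice and at 13.08, 12.97, 12.92 and 12.74 in the cortical mice. All hippocampal mice were above all cortical mice, and Ctsb rose by 0.67 ± 0.10 (edgeR adjusted p = 0.00677). Its call was lost with the replicate number as a block (0.61, adjusted p = 0.0667), with only the 2 groups in the fit (adjusted p = 0.0723), without cortex mouse 4 (adjusted p = 0.0531), without hippocampus mouse 3 (adjusted p = 0.0596) and without cells over 4% mitochondrial reads (0.53, adjusted p = 0.414). It was also lost with the columns as deposited (0.52, adjusted p = 0.561), with limma-voom (0.76, adjusted p = 0.942) and with limma on cell means, where the difference was 0.15 (adjusted p = 0.881). The 5xFAD cerebellum, on the plate of the hippocampus, had Ctsb at 12.95, 12.38 and 12.72, within or below the cortical range of 12.74 to 13.08. Ctsd (chromosome 7, 142375911 to 142388038), an aspartic protease, showed the same order at 14.75, 14.59 and 14.55 against 14.19, 13.996, 13.97 and 13.81, but its difference of 0.64 ± 0.14 did not pass (adjusted p = 0.133). Of 44 lysosome genes tested, 37 had a positive and 7 a negative difference, with a median of 0.23. In 15 the hippocampal mice were higher without overlap, among them Lamp1, a membrane glycoprotein of the lysosome (0.41 ± 0.10), Ctss (0.30 ± 0.08) and the sterol carrier Npc2 (0.49 ± 0.16). With limma on cell means, where each cell weighs the same, the sign turned for Ctsd (-0.015), Lamp1 (-0.587), Ctss (-0.289) and Npc2 (-0.013). In 3, Ctsf, Pld4 and Lgmn, they were lower without overlap; these 3 names were picked out after their values were seen.

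A palindromic E-box, CACGTG, is the core of the element through which TFEB and related factors bind lysosomal promoters. It was searched in the 250 bases before each gene start in RefSeq promoters (GRCm38.p6). For named members of the gene lists that held it, 1 window each is shown, whichever way the gene differed. Genes on the chromosome of Csf1r were left out of the windows. Named genes outside the lists, such as Hnmt, Slc34a2 and Mpeg1, were not considered for them. Ctsd held a second match and Lamp1 4 in all, of which those shown lie 98 and 45 bases before the RefSeq start. For Ctsd the window shown lies inside the gene span given above, whose start differs from that of RefSeq. The motif is in capitals.
Ctsd, chr7:142387908-142387937, minus strand: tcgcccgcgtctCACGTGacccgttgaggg
Lamp1, chr8:13159104-13159133, plus strand: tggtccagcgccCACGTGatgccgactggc
Hif1a, chr12:73907720-73907749, plus strand: cacacagacaagCACGTGagcggggcagct
Abca1, chr4:53160025-53160054, minus strand: gggccatgtctcCACGTGctttctgctgag
P2ry12, chr3:59263196-59263225, minus strand: cccatgggttcaCACGTGatgacatcgcag
Of 35 lysosome genes with a promoter in the table, 10 (28.6%) held the motif, against 6.86% of all 27025 genes with a promoter there. The median log2 fold change was 0.31 for the members with it and 0.26 for those without. Of the disease-associated genes 4 of 39 (10.3%) held it, with a median of 0.52 against 0.99 for those without, and of the homeostatic genes 3 of 29 (10.3%), with -0.05 against -0.20. P2ry12 and Abca1, with differences of -0.47 and -0.67, held it as well. A match describes these letters and shows no binding.

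Disease-associated genes mostly had higher values in the hippocampus. Of 50 tested, 49 had a positive difference and the median was 0.98, against 0.08 over all genes. In 36 the hippocampal mice lay above the cortical mice without overlap and in 0 below. Of the 50, 22 had an unadjusted p under 0.05, and Ctsb alone passed. This list holds the 8 panel genes and was put together with earlier results of these mice known, so it is not independent evidence of direction. Apoe (chromosome 7, 19696109 to 19699188), the lipid carrier whose variants are the main common genetic risk for Alzheimer disease, was at 14.03, 13.81 and 13.52 log2 CPM in the hippocampus and at 12.23, 12.65, 11.63 and 12.004 in the cortex. The groups were far apart, but the fitted difference of 1.63 ± 0.89 did not pass (adjusted p = 0.624). At least 5 Apoe reads were found in 72.1, 80.0 and 83.3% of thinned hippocampal cells and in 50 to 65.1% of cortical cells. Igf1, a growth factor, stood at 7.27, 6.67 and 7.26 against 6.64, 3.90, 4.80 and 5.25; without the cells over 4% mitochondrial reads its difference fell from 1.60 to 0.45. Fth1, the ferritin heavy chain that stores iron, was higher without overlap (0.55 ± 0.14, adjusted p = 0.426), as were the metalloprotease inhibitor Timp2 (0.80 ± 0.20, adjusted p = 0.429) and the inhibitory receptor Lilrb4a (2.27 ± 1.00, adjusted p = 0.594). Trem2 itself differed little, at 11.80, 11.65 and 11.65 against 11.38, 11.43, 11.23 and 11.65. It was higher by a narrow margin without overlap (0.27 ± 0.11, edgeR adjusted p = 0.594). Its adaptor Tyrobp overlapped between regions (0.50 ± 0.16). With limma on cell means the sign turned for Fth1 (-0.114) and Trem2 (-0.228). Mpeg1, a pore-forming macrophage gene named after its values were seen, was at 10.66, 10.12 and 10.24 against 9.41, 9.55, 9.19 and 9.75 (0.87 ± 0.18, adjusted p = 0.106).

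Homeostatic genes mostly had lower values. Of 41 tested, 34 had a negative and 7 a positive difference, with a median of -0.20. In 16 the hippocampal mice were lower without overlap, in 0 higher, and 0 passed (15 lower at an unadjusted p under 0.05). P2ry12 (chromosome 3, 59216272 to 59262871), the ADP receptor that guides microglial processes, was at 12.27, 11.96 and 12.16 log2 CPM in the hippocampus and 12.68, 12.55, 12.46 and 12.72 in the cortex. The groups did not overlap and the difference of -0.47 ± 0.09 missed the threshold (edgeR adjusted p = 0.0698); it passed in DESeq2 (adjusted p = 0.000292). Selplg, the P-selectin ligand, had 12.06, 11.92 and 12.12 against 12.44, 12.54, 12.46 and 12.55 (-0.46 ± 0.09, adjusted p = 0.106). Il10ra, a subunit of the interleukin 10 receptor, had 9.16, 9.45 and 9.16 against 9.99, 9.96, 9.87 and 10.06 (-0.71 ± 0.14, adjusted p = 0.101). Crybb1, a crystallin gene of mature microglia, had 5.89, 5.63 and 5.49 against 6.53, 6.71, 7.13 and 6.82 (-1.13 ± 0.27, adjusted p = 0.343). Tmem119 (-0.26 ± 0.14), the fractalkine receptor Cx3cr1 (-0.21 ± 0.09) and the growth factor receptor Csf1r (-0.15 ± 0.06) had smaller differences of the same sign, also without overlap. Their size depended on the processing. Over the alternatives P2ry12 ranged from -1.32 to -0.35, Tmem119 from -1.48 to -0.105, Cx3cr1 from -1.19 to -0.122 and Csf1r from -0.839 to -0.073. Each of these genes passed with limma on cell means. On the same plate as the hippocampus, the 5xFAD cerebellum had Cx3cr1 at 12.52 to 12.71, within or above the cortical range of 12.42 to 12.66, and Selplg at 11.95 to 11.97, within the hippocampal range; the part of the plate in these differences was not tested.

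**Figure D2:**
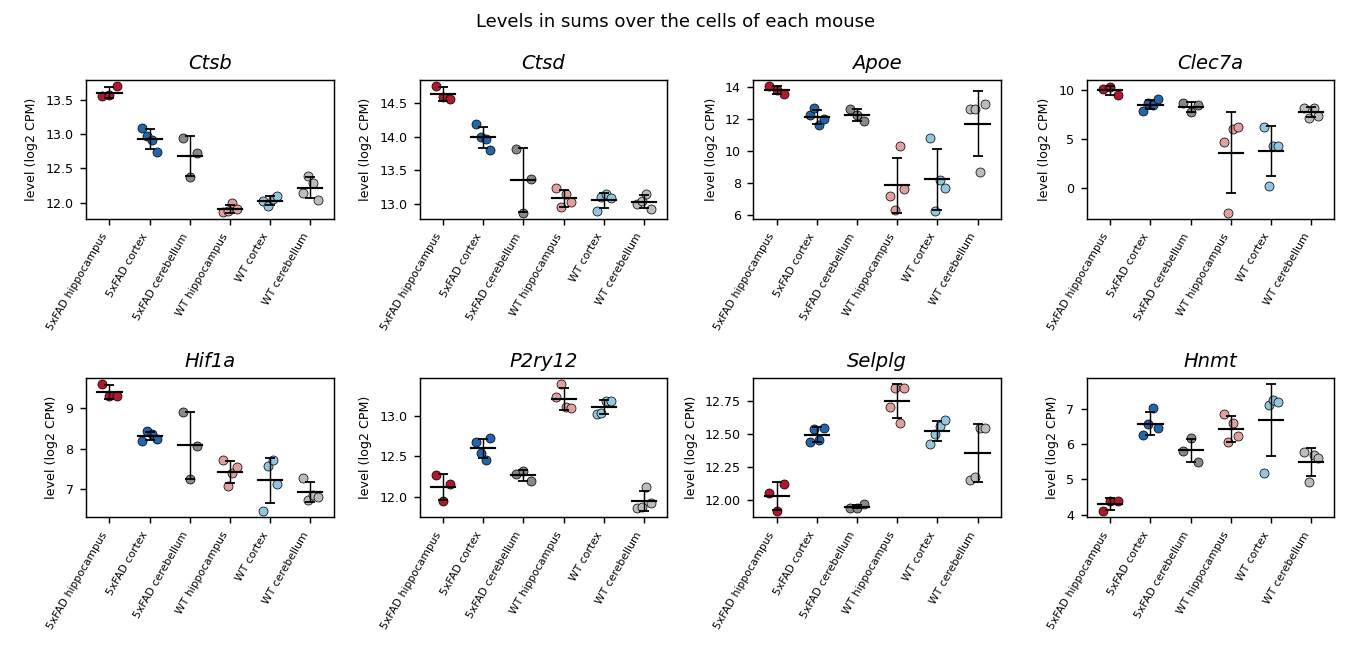
Level in log2 CPM (y axis, own scale in each panel) of 8 genes in the sum of each mouse, for the 6 groups; points are mice, bars the mean and whiskers 1 SD. Ctsb, Ctsd, Apoe, Clec7a and Hif1a are higher and P2ry12, Selplg and Hnmt lower in every 5xFAD hippocampal mouse than in any 5xFAD cortical mouse.

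Hnmt (chromosome 2, 24002910 to 24049394), which inactivates histamine by methylation, was the 1 gene that fell. Its level was 4.10, 4.39 and 4.40 log2 CPM in the hippocampus and 6.26, 6.58, 7.03 and 6.46 in the cortex, a difference of -2.32 ± 0.41 (edgeR adjusted p = 0.0379). The reads numbered 245, 351 and 271 in the hippocampal mice and 825, 964, 1427 and 1114 in the cortical mice. At least 5 reads were found in 8.0 to 9.52% of thinned hippocampal and 20.0 to 25.6% of thinned cortical cells, so both the level and the share of cells with reads were lower. The 5xFAD cerebellum on the plate of the hippocampus had 5.81, 6.17 and 5.50. The call was lost when any 1 of the 7 sums of mouse and region was left out (edgeR adjusted p from 0.0543 to 0.28). It was also lost with the replicate number as a block (adjusted p = 0.23), and in these fits the difference stayed between -2.40 and -2.13. With all wells of plate columns 1 and 2 left out it was lost too (-2.50, adjusted p = 0.117). Thinned cells, limma-voom, limma on cell means, the columns as deposited and only the 2 groups in the fit lost it as well. Of all 22 alternatives 16 lost the call, and the difference ranged from -2.50 to -1.23.

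Mitochondrially encoded genes gave the strongest statistics. mt-Rnr2, the large ribosomal RNA of the mitochondrion, was at 13.94, 14.30 and 13.31 log2 CPM in the hippocampus and 12.59, 12.68, 12.87 and 12.73 in the cortex, and rose by 1.19 ± 0.15 (edgeR adjusted p = 0.000805). The groups did not overlap. mt-Co1, a subunit of cytochrome c oxidase, was at 12.66, 12.96 and 12.26 against 11.55, 11.69, 11.86 and 11.50, and rose by 1.00 ± 0.13 (adjusted p = 0.000805). mt-Nd5, a subunit of complex I, was at 11.09, 11.27 and 10.76 against 10.16, 10.20, 10.26 and 9.96, and rose by 0.91 ± 0.12 (adjusted p = 0.00139). mt-Nd6, on the other strand of the mitochondrial genome, had 1.17 ± 0.23 (adjusted p = 0.0698). Of 22 mitochondrially encoded genes tested, 21 had a positive difference (the other was 0), 13 did not overlap, and the median was 0.81. Among 89 nuclear genes of the respiratory chain the median was 0.11, with 8 higher and 1 lower without overlap, and Atp5c1, a subunit of the ATP synthase, had 0.61 ± 0.19 (adjusted p = 0.594). With the replicate number as a block, mt-Rnr2 and mt-Co1 passed (both adjusted p = 0.0199) and mt-Nd5 did not (adjusted p = 0.0813). The calls of mt-Rnr2, mt-Co1 and mt-Nd5 were all lost with the columns as deposited and with only the 2 groups in the fit. They were also lost with limma on cell means and without cells over 4% mitochondrial reads. With limma-voom the calls of mt-Rnr2 and mt-Co1 were lost. Reads of mitochondrial genes can also come from near-identical nuclear copies, so their counts are uncertain.

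The share of mitochondrially encoded reads was also taken cell by cell. The median share of mitochondrially encoded reads per cell was 2.10, 2.26 and 2.14% in the hippocampal mice and 1.56, 1.72, 1.82 and 1.65% in the cortical mice, without overlap (exact permutation p = 0.0571, n = 3 and 4). Cells above 4% numbered 9 of 50, 14 of 58 and 7 of 46 in the hippocampus and 1 of 47, 0 of 45, 3 of 46 and 2 of 45 in the cortex. In the hippocampal mice these cells held 53.9, 65.3 and 30.1% of all mitochondrially encoded reads. In the thinned cells, 20 of the hippocampal cells above 4% were panel-positive (6, 11 and 3 per mouse) and 3 panel-negative (1 in each). Without the cells over 4% the differences were 0.51 for mt-Rnr2, 0.42 for mt-Co1 and 0.18 for mt-Nd5; this limit was set after the data were seen and removes cells by the very reads compared, so lower values follow from it and are given as a description only. Among the thinned cells at or under 4%, 13 of 35 (37.1%), 12 of 36 (33.3%) and 22 of 36 (61.1%) were panel-positive in the hippocampus and 8 of 39 (20.51%), 13 of 43 (30.2%), 7 of 42 (16.7%) and 10 of 42 (23.8%) in the cortex, still without overlap. In the sums without the cells over 4%, the median log2 fold change was 0.74 for the 50 disease-associated, 0.27 for the 44 lysosome and -0.11 for the 41 homeostatic genes. Among panel-negative cells the medians of the mitochondrial share overlapped, at 1.64, 1.75 and 1.43% against 1.56, 1.37, 1.77 and 1.45%. Among panel-positive cells they overlapped too, at 2.78, 3.94 and 2.55% against 1.26, 2.63, 2.27 and 2.79%. The 5xFAD cerebellum on the same plate had mt-Rnr2 at 12.75, 12.87 and 12.74, within the cortical range, and 3, 8 and 3 cells above 4% of 62, 59 and 72.

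**Figure D3:**
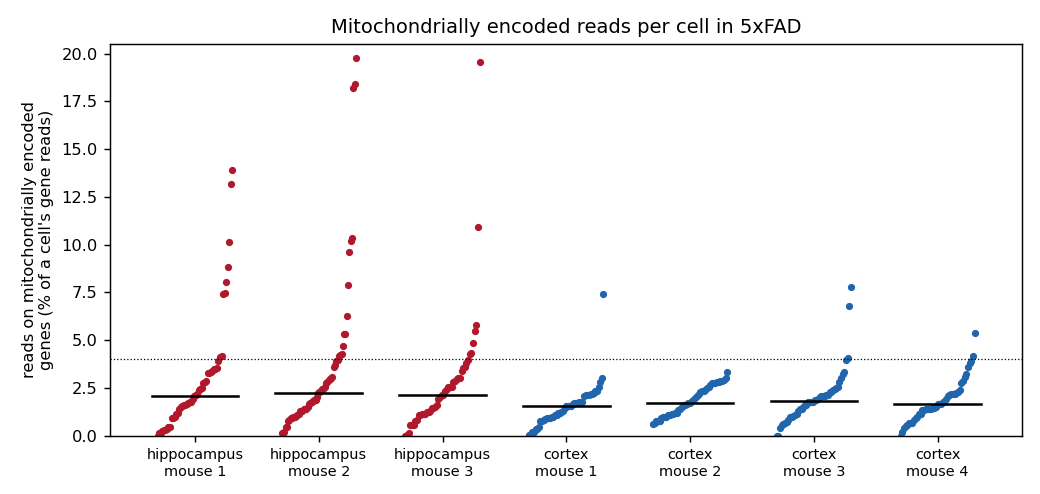
Percent of gene reads on mitochondrially encoded genes (y axis) of each kept cell of the 5xFAD mice, ordered within a mouse from low to high; bars are medians and the dotted line is at 4%. The hippocampal mice have 9, 14 and 7 cells above the line and the cortical mice 1, 0, 3 and 2.

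**Figure D4:**
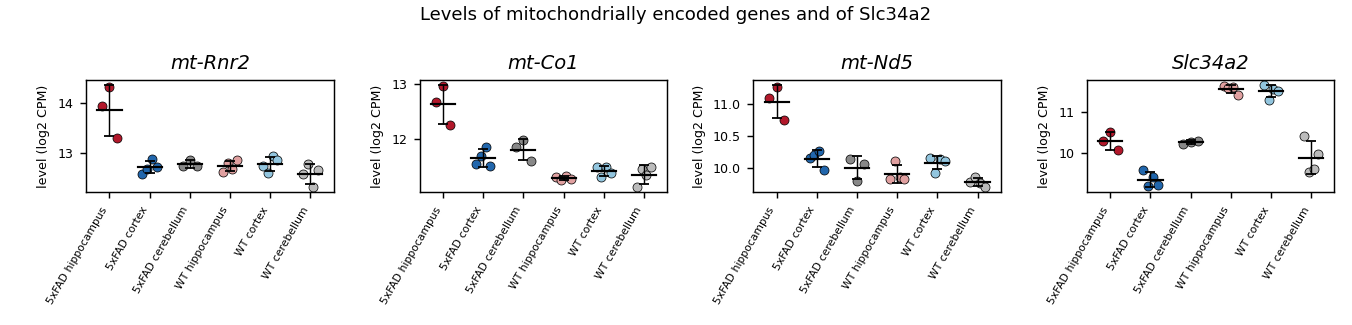
Level in log2 CPM (y axis, own scale in each panel) of mt-Rnr2, mt-Co1, mt-Nd5 and Slc34a2 in the sum of each mouse, for the 6 groups; points are mice, bars the mean and whiskers 1 SD. The mitochondrially encoded genes are higher in every 5xFAD hippocampal mouse than in any 5xFAD cortical or cerebellar mouse, while the Slc34a2 values of the 5xFAD cerebellum lie within those of the 5xFAD hippocampus, which shared its plate.

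Slc34a2 (chromosome 5, 53038081 to 53071664), a sodium-phosphate transporter gene of epithelia, rose by 0.94 ± 0.16 (edgeR adjusted p = 0.0226), from 9.59, 9.20, 9.42 and 9.23 log2 CPM in the cortex to 10.30, 10.52 and 10.07 in the hippocampus. Blank wells held mostly this gene (78.0% of their gene reads), with a median of 4734 reads per blank on the hippocampal plate and 3150 on the cortical plate. The 5xFAD cerebellum had 10.23, 10.28 and 10.31, within the hippocampal range. Its call was lost with the replicate number as a block (adjusted p = 0.086), with the stricter cell filter (0.63, adjusted p = 0.303) and when cortex mouse 2, 3 or 4 or hippocampus mouse 1 or 2 was left out (adjusted p from 0.0677 to 0.168).

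The other gene lists are given by the same counts and medians. Of 21 glycolysis genes 15 were positive with a median of 0.23, and 7 were higher without overlap, among them Hif1a, the hypoxia-inducible factor, at 9.59, 9.29 and 9.31 log2 CPM against 8.19, 8.44, 8.36 and 8.25 (1.09 ± 0.30, adjusted p = 0.548). The glycolytic enzymes Pkm (0.66 ± 0.26) and Aldoa (0.47 ± 0.19) were among them. Lipid handling genes, 34 tested, had a median of 0.57, with 10 higher and 1 lower without overlap; the cholesterol exporter Abca1 had -0.67 ± 0.26 with overlapping mice. MHC class I genes had 17 of 23 positive and a median of 0.09, with B2m, the light chain of class I, at 0.36 ± 0.12 and H2-D1 at 0.50 ± 0.17 as the 2 without overlap, while H2-K1 (0.35 ± 0.23) overlapped; reads of H2-D1 and H2-K1 may be split among near-identical class I genes. Complement and phagocytic receptors, 28 tested, had a median of 0.10, with 5 higher and 1 lower without overlap. The integrin chain Itgb2 (0.49 ± 0.15) and Pros1 (0.53 ± 0.18) were among the higher, and the scavenger receptor Stab1 was lower (-0.75 ± 0.20). Of 39 Alzheimer risk genes, 6 were higher, such as the cathepsin Ctsh (0.54 ± 0.15), and 7 lower without overlap, such as the kinase Ptk2b (-0.68 ± 0.26), with a median of -0.07. Ribosomal protein genes had a median of 0.28 with 10 of 79 higher without overlap, among them Rpl22 (1.07 ± 0.36), and heat shock and unfolded protein genes 0.20 with 3 of 19, among them Sdf2l1 (0.72 ± 0.26). Inhibitory and pattern receptors had a median of 0.15 with 3 of 26 higher without overlap, and the cell cycle list 0.07 with 2 of 25. The interferon response (37 genes, median 0.09), MHC class II (11, 0.06), cytokine (28, 0.07) and immediate early lists (22, 0.13) had 0 members higher without overlap and, in the cytokine list, 1 lower (Gadd45b, named after its values were seen, with 0 reads in each hippocampal mouse and 37, 2, 86 and 17 in the cortical mice), and the glucocorticoid response list (12, 0.01) had 1. With limma on cell means the sign turned for Aldoa (-0.216), H2-D1 (-0.022), H2-K1 (-0.126), Pros1 (-0.620) and Ctsh (-0.251). The immediate early gene Atf3 had 1.401 ± 0.54 with overlapping mice. Apart from Ctsb, which is also a risk gene, 0 members of these lists passed.

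Within the panel classes the medians of the disease-associated, lysosome and homeostatic lists were nearer 0. Those of the interferon response and cytokine lists were further from 0. Panel-positive cells of the 2 regions, 67 hippocampal and 43 cortical, were summed per mouse and compared over 9363 genes, and panel-negative cells, 46 and 114, over 10488. In panel-positive cells 0 genes passed in edgeR (0% of those tested, 243 at an unadjusted p under 0.05, 33 in DESeq2). In panel-negative cells 1 passed (0.00953%), the predicted gene Gm10800, with 656 at an unadjusted p under 0.05 and 207 in DESeq2. With the replicate number as a block 0 passed in either class. Of the disease-associated list, 33 members without the panel genes were tested in all 3 fits: their median was 0.64 over all cells, 0.14 among panel-positive and 0.19 among panel-negative cells. For 42 lysosome genes the medians were 0.23, 0.03 and 0.04, and for 40 homeostatic genes -0.19, -0.15 and -0.04. For 31 interferon response genes they were 0.09, -0.59 and 0.44, and for 20 cytokine genes 0.07, -0.98 and 0.395. In both of these lists the sign differed between panel-positive and panel-negative cells. Ctsb had 0.67 over all cells, 0.23 among panel-positive and 0.09 among panel-negative cells, and P2ry12 -0.47, -0.14 and -0.07. The mitochondrially encoded genes had medians of 0.73, 0.58 and 0.58 over 14 genes, and mt-Rnr2 had 1.19, 0.89 and 1.24. The panel-negative sums of the hippocampus each held 1 cell high in mitochondrial reads, at 8.07, 19.7 and 19.6%. In the cortex 0 panel-negative cells were above 4%. The medians per panel-negative cell overlapped between regions, as given above. Hnmt had -2.32, -0.77 and -2.74. The sums of a class hold fewer cells than those of all cells, and differences between the fits were not tested. Each class fit also held only the 7 sums of 5xFAD hippocampus and cortex, while the fit over all cells held 22. With only these 2 groups in the fit, all cells gave 0 passing genes too, so the counts of passing genes are not like for like.

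**Figure D5:**
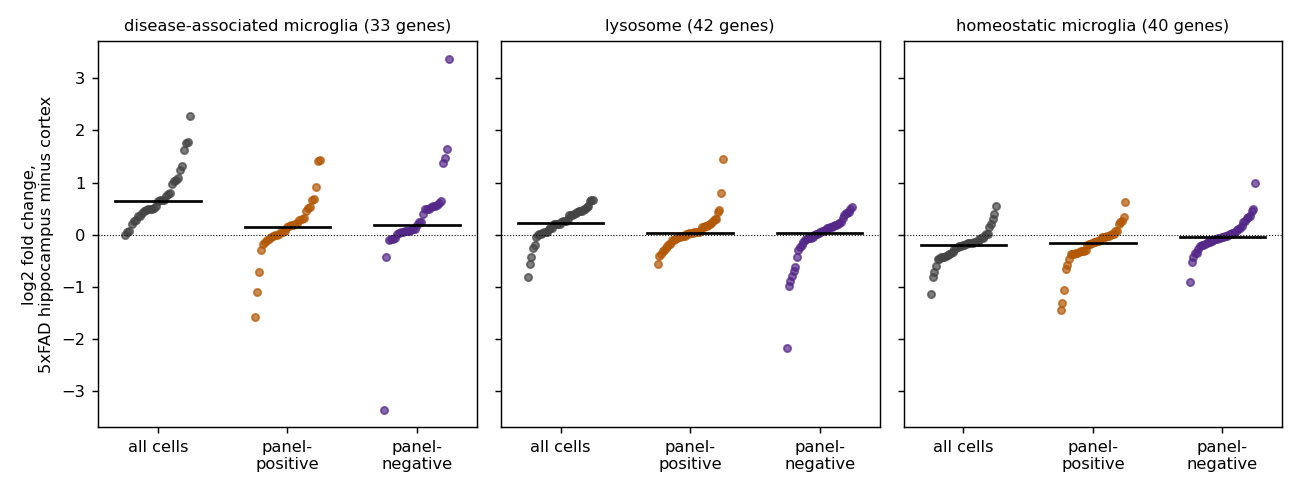
Log2 fold change of 5xFAD hippocampus minus cortex (y axis) for members of 3 gene lists tested in all 3 fits, over all cells, panel-positive and panel-negative cells; points are genes in rising order and bars are medians. The median of the 33 disease-associated genes is 0.64 over all cells and 0.14 and 0.19 within the classes.

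In WT mice, where both regions shared a plate, 0 of 17358 genes passed between hippocampus and cortex (0%; edgeR, 1827 at an unadjusted p under 0.05, 301 in DESeq2), and 5, all lower in the hippocampus, with the replicate number as a block. The list medians were -0.12 for disease-associated, 0.06 for homeostatic, -0.05 for lysosome and -0.34 for mitochondrially encoded genes, against 0.98, -0.20, 0.23 and 0.81 in 5xFAD. The difference of the 2 regional differences was tested in the same fit, and 8 genes passed (0.0461%). Ctsb differed by 0.79 (0.67 in 5xFAD, -0.12 in WT, edgeR adjusted p = 0.0372), mt-Rnr2 by 1.23, mt-Co1 by 1.13 and mt-Nd5 by 1.09 (adjusted p = 0.0219, 0.0162 and 0.0162), and Selplg by -0.69 (-0.46 in 5xFAD, 0.23 in WT, adjusted p = 0.0442). The others were the predicted genes Gm10800, Gm10801 and Gm21738. P2ry12 and Hnmt did not pass this test (adjusted p = 0.124 and 0.247). Leaving out hippocampus mouse 1 or 2 or cortex mouse 4 of 5xFAD, or hippocampus mouse 3 of WT, left 0 genes passing. Plate columns 1 and 2 held 24 kept cells of WT cortex mouse 1 and 23 of 5xFAD hippocampus mouse 1. They held 0 of WT hippocampus and 0 of 5xFAD cortex. Well position thus differed between the regions in both genotypes, and its part was not tested. Since the 5xFAD arm crosses plates and the WT arm does not, plate and genotype cannot be told apart in the test of the 2 regional differences either. The other contrast between the same plates, 5xFAD minus WT in the cerebellum, gave 8 passing genes (0.0461%), 0 of them shared with the 6 above. Plate and genotype differ together in it and cannot be told apart, so the part of the plate in the 6 was not tested. There Ctsb had 0.48, mt-Rnr2 0.19, Slc34a2 0.34, Hnmt 0.32 and P2ry12 0.31.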

How the data were processed

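Reads had been aligned with STAR 2.5.2b to GRCm38 and counted with featureCounts 1.5.1, per the submitters' processing notes; the annotation, trimming and strand setting were not given in the sources used here. The authors deposited raw read counts for 48587 genes and 92 ERCC spikes in 1152 wells, 12 of them blank. In 96 columns, those of wells 1 and 2 of each plate row, the counts also held the reads of wells 10 to 19 and 20 to 24 of that row; these were subtracted, which left 0 negative values among 4673184 (506416 when the next row was subtracted instead). Wells with at least 500 genes, at least 10000 gene reads and at most 20% mitochondrially encoded reads were kept, and their counts were summed per mouse and region into 22 sums. Smart-seq2 reads carry no molecular identifiers, so they are not independent molecules. Replicate counts per group are mice, as the labels number them.

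All 22 sums were fitted together with edgeR 4.0.16 in R 4.3.3 (quasi-likelihood test, TMM, filterByExpr, Benjamini-Hochberg over all genes tested, threshold 0.05). Levels are log2 CPM with a prior count of 2, and each SE was derived from the fold change and its F statistic. Panel shares were compared with a two-sided exact permutation test. This test and the main fit took values of a shared replicate number as independent. For panel classes, only the 7 sums of 5xFAD hippocampus and cortex were fitted. The 8 panel genes were left out of the calls, and a class of a mouse needed at least 5 cells. Alternatives used DESeq2 1.42.0, limma 3.58.1 and other filters, cells and samples. The scripts were tested on simulated data.

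Genes were named by rule: passing genes with a mean of at least 4 log2 CPM, detection in at least 20% of cells in 1 group and no overlap between mice (at most 15 in each direction), up to 4 members of each list by p, and 8 genes always. Those with reads in under 20% of cells of both groups, and most list members, are given by counts only. The lists, the panel and the comparison were chosen with earlier results of these data known. Ctsf, Pld4, Lgmn, Gadd45b, Mpeg1 and Igf1 were named after their values were seen.

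The series states that regions came from the same mice, and a shared number was taken to mark the mouse. Deviations of same-numbered hippocampal and cortical sums correlated at 0.032, -0.002 and -0.026 in 5xFAD and at 0.001, 0.089, -0.049 and 0.055 in WT, over 2657 genes. Promoter sequences are from RefSeq (GRCm38.p6).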

Additional observations from a re-analysis of the deposited data

Results flagged for a closer look

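In the 4 cortical 5xFAD mice, 1 mouse stood far from the others for 4 genes: Abca1 at 8.21 log2 CPM in mouse 1, Ctsh at 10.02 in mouse 1, Ch25h at 4.05 in mouse 4 and Spp1 at 5.09 in mouse 2. Chance gives about 1 such case in 20 groups, and 58 groups were examined.

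The regional difference in 5xFAD differed from that in WT for 8 genes. Ctsb differed by 0.79, Selplg by -0.69, mt-Rnr2 by 1.23, mt-Co1 by 1.13 and mt-Nd5 by 1.09 on the log2 scale, with the values given above. The predicted gene Gm10800 (chromosome 2, 98666547 to 98667301) differed by 4.96, Gm10801 by 4.86 and Gm21738 by 4.88 (edgeR adjusted p = 0.0372, 0.0372 and 0.0442). Gm10800 had 71697, 86740 and 38447 reads in the 5xFAD hippocampus and 25377, 5293, 8338 and 3616 in the 5xFAD cortex. In WT the order was the opposite, with 15803, 12477, 6305 and 4858 reads in the hippocampus and 73734, 47057, 45478 and 31900 in the cortex. Plate and region cannot be told apart in the 5xFAD arm. The WT cerebellum, on the plate of the 5xFAD cortex, had 57548, 47221, 25162 and 29534 reads. The 5xFAD cerebellum, on the plate of the 5xFAD hippocampus, had 28609, 7894 and 15875. Plate columns 1 and 2 held kept cells of 5xFAD hippocampus mouse 1 and WT cortex mouse 1, but not of 5xFAD cortex or WT hippocampus. Well position thus differed between the regions in both arms, and its part was not tested.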

How the results depend on the processing

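The difference in panel-positive share kept its direction under each alternative run, at 22.4 to 32.0 points with other thresholds and depths and at 20.1 to 27.8 when 1 mouse was left out. The 6 genes passing between 5xFAD regions became 244 with DESeq2 (6 shared), 20 with thinned cells (5 shared), 38 with limma-voom (2 shared), 99 with limma on cell means (0 shared) and 41 without a filter on low counts (6 shared). They became 0 with the columns as deposited, 0 with only the 2 groups in the fit and 0 without cells over 4% mitochondrial reads, the last chosen after seeing the data. Leaving out 1 mouse gave 3 to 5, with 3 without cortex mouse 4. For WT the 0 became 301 with DESeq2, 43 without the filter and 0 to 2 without 1 mouse. For the difference between genotypes the 8 became 363, 76 and 0 to 12, and for the cerebellum the 8 became 324, 98 and 1 to 10. For panel-positive cells the 0 became 33, 7 and 0 to 0, and for panel-negative cells the 1 became 207, 27 and 0 to 5. The cause of these shifts was not tested.

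With the replicate number as a block, on the assumption that a shared number marks a mouse (cortex mouse 4 has no hippocampal partner), 4 genes passed between 5xFAD regions (Gm10801 at 2.23, Gm10800 at 2.17, mt-Rnr2 at 1.15 and mt-Co1 at 0.92), 5 in WT, 6 for the difference between genotypes, 0 in panel-positive and 0 in panel-negative cells.

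Of 1186 values for 54 named genes under alternatives, 1045 kept direction and side of the threshold, 51 lost the call, 79 gained it and 11 changed sign. All 11 sign changes came from limma on cell means, on the log2(CPM + 1) scale: Ctsd -0.015, Fth1 -0.114, Lamp1 -0.587, Ctss -0.289, H2-D1 -0.022, H2-K1 -0.126, Aldoa -0.216, Npc2 -0.013, Pros1 -0.620, Ctsh -0.251 and Trem2 -0.228. P2ry12 passed with thinned cells (adjusted p = 0.0408). The depth of a class sum and the 3 and 4 mice limit what can pass.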
